A study of Mus musculus with 10 samples.

Results

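CD24highCD49fmed cells are a sorted luminal fraction of the mouse mammary gland, and their RNA was compared with that of basal cells from the same gland. The 2 CD24highCD49fmed arrays were set against the 6 arrays of 3 basal populations, which were 2 arrays each of CD24medCD49fmed, Thy-1+CD24medCD49fhigh and Thy-1-CD24medCD49fhigh, so 8 of the 10 arrays of the series were compared. Groups were taken from the sample titles, and every probe set with exactly 1 gene symbol was used, averaged per gene, which gave 2560 named genes among 2932 tested features. The remaining 2 arrays, of the other luminal population CD24medCD49f-/low, helped to estimate the spread and are described only where CD24highCD49fmed was set against them. All mice were untreated virgin FVB females of 6 to 8 weeks, with no transgene or deleted gene named in the labels. Dissociated glands were stained for CD45, CD31 and Ter119, which mark blood cells and endothelium, and per the study's methods for CD140α, a fibroblast marker, and sorted in 2 passes on CD24 and CD49f, with Thy-1 used to split the CD49fhigh gate. CD24 is a surface glycoprotein and CD49f is integrin α6. The labels' CD24medCD49fmed gate may differ from the myoepithelial gate that the study's text describes as CD24low, since no source equates them. The labels do not say whether the arrays of a population came from separate mice or from pools, so the p-values below speak for the spread of these arrays, which may be technical.

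The mammary epithelium has an inner luminal layer, which lines the ducts and makes milk, and an outer basal layer of contractile myoepithelial cells that lie on the basement membrane and squeeze milk out. Luminal progenitors are luminal cells that form colonies in culture and are marked by Elf5, a transcription factor of alveolar development, by Kit, a receptor tyrosine kinase, and by secretory and defence genes such as Ltf and Cd14. Basal identity rests on the transcription factor p63, encoded by Trp63, with keratins 5 and 14 and smooth muscle proteins.

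The values are log2 intensities centred per probe set to a mean of 0 over the 10 arrays, so that each shows how an array stands against the other arrays and not how abundant a transcript was. Differences are CD24highCD49fmed minus the mean of the 3 basal population means, on the log2 scale, with a standard error (SE) from a limma fit, and called means a p under 0.05 after Benjamini-Hochberg adjustment. Of the 2932 features 2189 were called, or 74.7%, with 1291 higher (44.0%) and 898 lower (30.6%) in CD24highCD49fmed. The table held only probe sets that the authors had kept for a wide range between arrays, at least 2.00 log2 units as deposited, and these shares apply to that selected table. The median difference over all features was 0.41. The CD24highCD49fmed arrays lay outside the range of the 6 basal arrays for 2401 features, or 81.9%, with 1304 above (44.5%) and 1097 below (37.4%). Against the single basal populations, 1493 features (50.9%) were called in the same direction against all 3, 916 higher (31.2%) and 577 lower (19.7%). Without CD24highCD49fmed replicate 1 the count of calls was 1138 and without replicate 2 it was 1626, and leaving out any 1 basal array gave between 1990 and 2155. A population left with 1 array has a less precise mean, so a lower count need not come from the values of the array left out. In bulk samples such as these, fewer cells of a type and less RNA per cell cannot be told apart.

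Genes were ranked among called ones whose CD24highCD49fmed arrays did not overlap the basal arrays, so their separation is no finding. Those furthest above the basal arrays were led by Pwwp3b, Cldn8, Scara5, Htr4 and Ctsr, and those furthest below by Sparc, Cxcl14, Krt17, Id4 and Antxr1. Cldn8 encodes a tight junction claudin, Scara5 a scavenger receptor that binds ferritin and Htr4 a serotonin receptor. Sparc encodes a matrix glycoprotein of basement membranes, Cxcl14 a chemokine, Krt17 a basal keratin, Id4 an inhibitor of helix-loop-helix transcription factors and Antxr1 a receptor for collagens. Cldn8 read 3.25 and 2.30 in the CD24highCD49fmed arrays, while the lowest, median and highest of the 6 basal arrays were -2.21, -1.52 and -0.51. Both CD24highCD49fmed values stood well above every basal one, and the difference was 4.23 (SE 0.50), or 18.8-fold, with a limma adjusted p of 1.17e-06. Pwwp3b had the largest difference of any named gene, 4.43 (SE 0.49), and its arrays at 2.41 and 3.79 were further apart than those of Cldn8. Scara5 differed by 4.18, Htr4 by 4.16, Ctsr by 3.98, Tox3 by 3.93, Zfp979 by 3.83, Gm266 by 3.81, Sgms2 by 3.80 and Trpc6 by 3.75. Sgms2 makes sphingomyelin, Trpc6 is a cation channel and Tox3 an HMG-box nuclear factor. At the other end, Sparc stood at -3.81 and -3.49 in CD24highCD49fmed and between 1.35 and 1.88 in the basal arrays, with a median of 1.70. No basal array came near the CD24highCD49fmed values, and the difference was -5.30 (SE 0.40, adjusted p = 1.39e-08), a 39.5-fold lower signal.

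**Figure D1:**
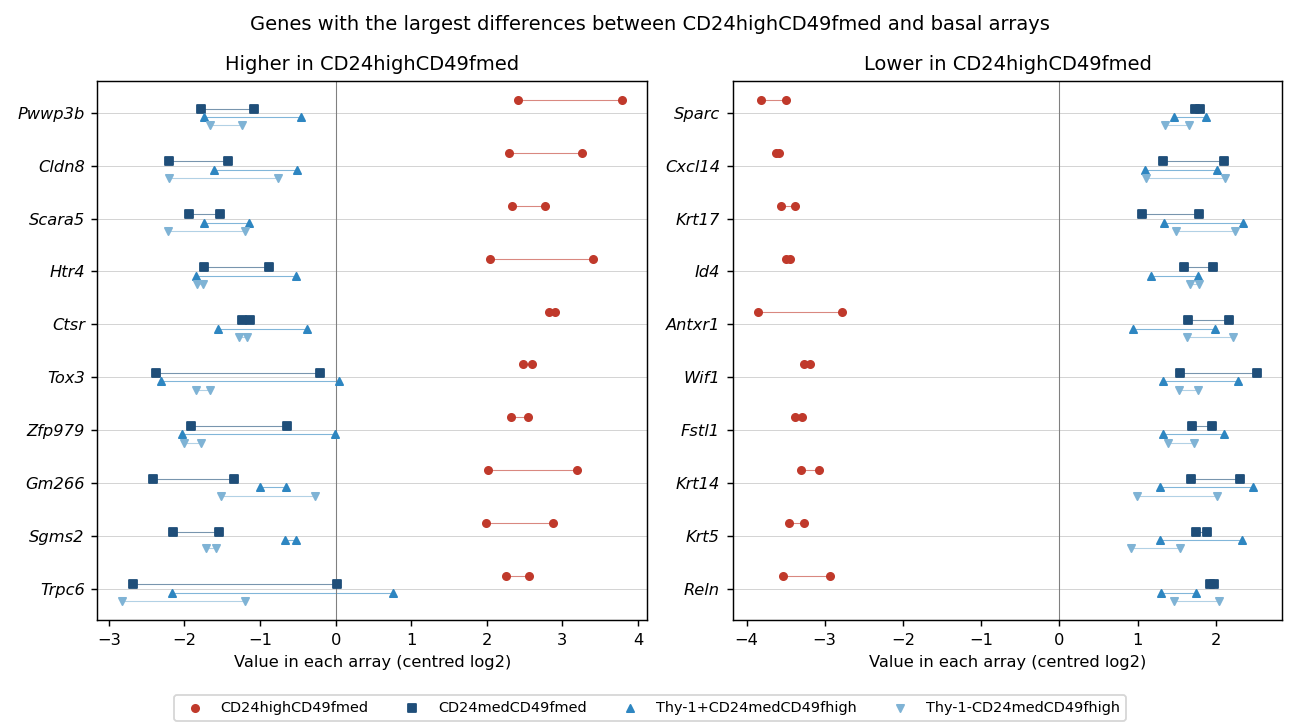
Values in each array (centred log2, horizontal axis) of the 10 genes with the largest differences in each direction, with red circles for the 2 CD24highCD49fmed arrays and blue symbols for the 2 arrays of each basal population; a line joins arrays of 1 population. The genes were chosen from those whose CD24highCD49fmed arrays lie clear of all 6 basal arrays, so that separation is no finding. CD24highCD49fmed values ran from 2.05 to 3.41 for Htr4 and were -3.62 and -3.59 for Cxcl14.

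Genes of luminal progenitors and alveolar precursors were higher in CD24highCD49fmed. Of the 18 genes listed 12 were in the table, and 10 were called higher (against 44.0% of all features), none lower and 2 not called. Their median was 2.45, against 0.41 for all features. The CD24highCD49fmed arrays were above all basal arrays for 10 of the 12, against 44.5% of all features. The ETS factors Ehf and Elf5 led the list, followed by Cd14, the co-receptor for bacterial lipopolysaccharide, Cyp24a1, which inactivates vitamin D, the tetraspanin Tspan8, and Ltf, the iron-binding milk protein lactoferrin. Elf5 read 1.84 and 1.75 in CD24highCD49fmed, against -2.58, -0.89 and 0.20 as the lowest, median and highest basal values. The groups did not overlap, and the difference was 2.76 (SE 0.47, adjusted p = 6.86e-05). Ehf differed by 3.15 (SE 0.49), Cd14 by 2.72, Cyp24a1 by 2.68, Tspan8 by 2.64 and Ltf by 2.59. Kit stood at 1.36 and 1.53 and in the basal arrays from -1.62 through a median of -0.94 to -0.15, a difference of 2.31 (SE 0.46, adjusted p = 3.05e-04). Kit, Ltf and Cd14 were each lowest in the CD24medCD49fmed arrays.

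Not every progenitor marker was higher. Itgb3 encodes CD61, a surface marker used to sort luminal progenitors, and it read -0.63 and -0.07 in CD24highCD49fmed and 0.01 to 0.96 in the basal arrays, with a difference of -0.85 that was not called (adjusted p = 0.0990). Both CD24highCD49fmed values were thus below all basal arrays, by little. Itgb3 was the 1 member with a negative difference, and the list had 1 gene called lower with array weights, with each array's median at 0 and with only the arrays compared. Aldh1a3, which makes retinoic acid, differed by 0.96 and was not called either (adjusted p = 0.100). Csn3, the κ-casein gene, was called at 1.43 (adjusted p = 0.0114), but not without CD24highCD49fmed replicate 1 (1.55, adjusted p = 0.0626) or replicate 2 (1.31, adjusted p = 0.0932). With quantile normalisation Csn3 differed by 1.07 and was not called (limma adjusted p = 0.0509). Against CD24medCD49f-/low none of the 12 list members was called, and their median difference was 0.50. The marker genes thus set CD24highCD49fmed apart from basal cells, and with these arrays they did not separate it from the other luminal population.

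**Figure D2:**
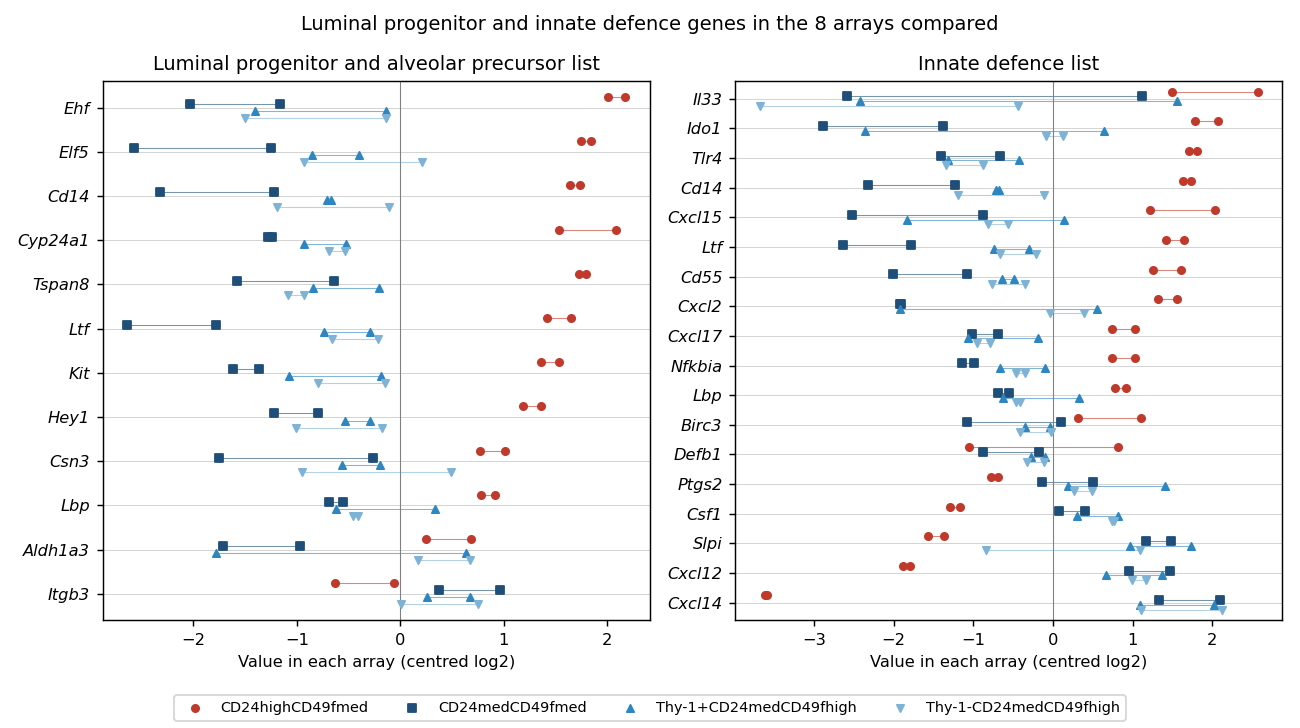
Values in each of the 8 arrays compared (centred log2, horizontal axis) for the luminal progenitor list (left) and the innate defence list (right), with red circles for CD24highCD49fmed and blue symbols for the basal populations. Most progenitor genes have both red circles above all basal arrays, as Kit does at 1.36 and 1.53, while Itgb3 and 5 defence genes lie below.

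Tight junction and polarity genes were higher in CD24highCD49fmed or not called. Of 39 listed genes 27 were in the table, with 16 higher (all features 44.0%), none lower, 11 not called and a median of 1.49. Besides Cldn8, the named members were Ocln, which encodes the junction protein occludin (2.68, SE 0.62), Cldn10 (2.41), the tricellular junction gene Marveld2 (2.29) and Grhl1, a grainyhead transcription factor of epithelia (2.29). Ocln read 1.50 and 2.30 in CD24highCD49fmed and -1.82, -0.65 and 0.48 at the lowest, median and highest of the basal arrays. Both luminal values were above the basal range, and the adjusted p was 0.00110. The claudins did not move as 1 group: Cldn3 and Cldn7 overlapped the basal arrays and were not called (1.08 and 1.28, adjusted p = 0.0603 and 0.122). With the replicate number added to the fit as a block, which may not pair the samples, both were called, at 1.43 and 2.08. The Cldn3 value was the mean of probe sets at 0.92, 0.74 and 1.57, and the last passed alone (limma adjusted p = 0.0091). Cldn3 passed without CD24medCD49fmed replicate 3 (1.27, adjusted p = 0.0315), without Thy-1+CD24medCD49fhigh replicate 2 (1.28, adjusted p = 0.0483) and without either CD24medCD49f-/low array (1.08, adjusted p = 0.0171). Cldn7 passed without CD24medCD49fmed replicate 3 (1.81, adjusted p = 0.0111) and without either CD24medCD49f-/low array (1.28, adjusted p = 0.0404).

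Of the simple epithelial keratins, the classical luminal stains, Krt18 was higher and Krt19 was not called. Krt18 read 0.79 and 1.14 against -1.92, -0.67 and 0.60 for the lowest, median and highest basal arrays. The groups did not overlap and the difference of 1.54 (SE 0.54) was called (adjusted p = 0.0148). With quantile normalisation it was 1.14 and not called (limma adjusted p = 0.105). The call was lost without either CD24highCD49fmed array (adjusted p = 0.0555 and 0.0987), without Thy-1+CD24medCD49fhigh replicate 1 (0.0609) and without Thy-1-CD24medCD49fhigh replicate 1 (0.0667). Krt19 differed by 0.63 (adjusted p = 0.463), and its basal values of -1.89 to 1.56 enclosed both CD24highCD49fmed values. With the replicate number added to the fit as a block, which may not pair the samples, it was called at 1.53. Its difference was 1.34 without CD24highCD49fmed replicate 1 and -0.074 without replicate 2.

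Some genes of hormone sensing luminal cells were higher than in basal cells, in a share near that of all features. Foxa1, a pioneer factor for the oestrogen receptor, read 1.99 and 2.12 and differed by 3.36 (SE 0.71, adjusted p = 5.66e-04). Its basal values were -3.43, -1.59 and 0.52 at the lowest, median and highest, and the arrays of single basal populations stood far apart, at -3.43 and 0.45 in CD24medCD49fmed. Prom1, the CD133 gene, differed by 3.31, the stanniocalcin gene Stc2 by 2.25, the progesterone receptor gene Pgr by 2.17 (SE 0.45) and the oestrogen receptor gene Esr1 by 2.07 (SE 0.47). Over this list 16 genes were sought and 10 were in the table, with 5 higher (against 44.0% of all features), 1 lower, 4 not called and a median of 1.55. The lower member was Cxcl12, a chemokine, at -2.94 (adjusted p = 9.47e-06). Tnfsf11, the RANKL gene through which progesterone acts, was not called at 1.03 (adjusted p = 0.0905), although it passed without either CD24medCD49f-/low array (adjusted p = 0.0105). Against CD24medCD49f-/low no member was called, and the median difference was -0.22.

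Among luminal transcription factors 14 of 34 were in the table. They counted 8 higher (all features 44.0%), 2 lower (30.6%) and 4 not called, with a median of 1.62. Beyond Tox3, Foxa1, Ehf and Elf5, the higher members included Myb (2.74), a proto-oncogene. Tfap2c and Sox4 were lower, at -1.41 (adjusted p = 0.00783) and -1.38 (adjusted p = 0.0206). Without CD24highCD49fmed replicate 1 neither was called (adjusted p = 0.0754 and 0.177), Tfap2c was not called without replicate 2 (0.0642), and Sox4 was not called without Thy-1+CD24medCD49fhigh replicate 1 (0.0542) or either Thy-1-CD24medCD49fhigh array (0.0607 and 0.0582). Tbx3, a T-box factor of mammary development, read 0.27 and 0.74 with a basal range of -1.01 to 0.10, a difference of 0.89 that missed the threshold (adjusted p = 0.0713), although 1 of its 2 probe sets passed alone. It passed without Thy-1-CD24medCD49fhigh replicate 2 (1.03, adjusted p = 0.0458) and without either CD24medCD49f-/low array (0.89, adjusted p = 0.0334).

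Milk genes were higher although the mice were virgin. In this list 10 of 21 genes were in the table, with a median of 1.40. They counted 8 higher (all features 44.0%), none lower and 2 not called. Muc15, a mucin of the milk fat globule, read 2.43 and 1.97 against -1.93, -1.33 and 0.27 for the lowest, median and highest basal arrays. Its groups did not overlap, and it differed by 3.35 (SE 0.49, adjusted p = 1.39e-05). Wfdc18 (2.49), the butyrophilin gene Btn1a1 (2.41) and Lalba, the α-lactalbumin gene (1.72), followed. The caseins Csn2 and Csn1s2a were not called, at 0.57 and 0.30 (adjusted p = 0.290 and 0.588). Without CD24highCD49fmed replicate 1 the list had 5 calls, and without replicate 2 it had 4.

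Fatty acid and cholesterol synthesis genes were mostly higher. Of 43 listed genes 16 were in the table, with 12 higher (all features 44.0%), 1 lower and 3 not called. The median was 1.32 and the largest difference 1.95, for Lpin1 (SE 0.42), a phosphatidate phosphatase. Elovl7, a fatty acid elongase, differed by 1.84 (SE 0.42, adjusted p = 0.00106), with 1.28 and 1.15 in CD24highCD49fmed and a basal range of -1.15 to 0.19 around a median of -0.69. Those 2 genes kept their calls with each array left out in turn. The sterol regulator Insig2 (1.71) and Acss2, which makes acetyl-CoA from acetate (1.63), lost theirs without CD24highCD49fmed replicate 1 (adjusted p = 0.0597 and 0.0515), and Me1, which makes NADPH (1.60), without replicate 2 (0.0687). Fads1, a desaturase, was the lower member at -1.22 (adjusted p = 0.0367), and it was not called without either CD24highCD49fmed array, Thy-1+CD24medCD49fhigh replicate 1 or either Thy-1-CD24medCD49fhigh array (adjusted p from 0.0801 to 0.181). Without CD24highCD49fmed replicate 1 the list had 4 genes called higher, without replicate 2 or Thy-1-CD24medCD49fhigh replicate 1 it had 8.

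Innate defence genes split. Receptors such as Tlr4 and Cd14 and the chemokine Cxcl2 were higher, and Cxcl14, Cxcl12, Slpi, Csf1 and Ptgs2 were lower. Of 61 listed genes 18 were in the table, with a median of 1.59. They counted 12 higher (all features 44.0%), 5 lower (30.6%) and 1 not called. Tlr4, the lipopolysaccharide receptor that works with Cd14, read 1.81 and 1.71 in CD24highCD49fmed, against -1.41, -1.10 and -0.42 at the lowest, median and highest of the basal arrays. Its groups did not overlap, and the difference was 2.77 (SE 0.44, adjusted p = 3.35e-05). Ido1, which breaks down tryptophan, differed by 2.92, and the chemokine genes Cxcl15 and Cxcl2 by 2.70 and 2.24. Il33, an alarmin cytokine, differed by 3.11 but with an SE of 0.89, and its basal values from -3.67 to 1.55 reached the CD24highCD49fmed array at 1.50. It was not called with robust moderation in limma (adjusted p = 0.104) or without Thy-1-CD24medCD49fhigh replicate 1 (2.57). Among the lower genes Cxcl14 differed by -5.23 (SE 0.44, adjusted p = 2.09e-08), the protease inhibitor gene Slpi by -2.40 and Csf1, a growth factor for macrophages, by -1.74. Cxcl14 stood at -3.62 and -3.59 with basal values of 1.10, 1.68 and 2.12 at the lowest, median and highest. Ptgs2, the cyclooxygenase-2 gene, was lower at -1.19 (adjusted p = 0.0189) but not without CD24highCD49fmed replicate 1 (0.109) or replicate 2 (0.122).

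The promoters of this list are shown because its members moved in both directions, and NF-κB, a factor activated through Tlr4, is known to regulate several of them. RefSeq promoter windows of build GRCm38.p6, cut here to the 250 bases before the annotated start, were found for 12 of the 18 genes as 13 windows. The κB site, searched on both strands, was in 3 of 13 windows, or 23.1%, against 3.90% of all 32851 windows. Capitals mark the site, every window reads toward the gene, and in Cxcl2 the capitals hold 2 overlapping matches. Cxcl2 lies on the plus strand at chr5:90903649-90903898, Nfkbia on the minus strand at chr12:55492648-55492897 and Csf1 on the minus strand at chr3:107760470-107760719.
Cxcl2: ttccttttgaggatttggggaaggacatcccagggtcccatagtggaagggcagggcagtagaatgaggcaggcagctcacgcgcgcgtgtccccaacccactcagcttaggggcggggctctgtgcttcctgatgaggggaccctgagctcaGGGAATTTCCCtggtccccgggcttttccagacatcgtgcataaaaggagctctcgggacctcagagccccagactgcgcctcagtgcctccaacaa
Nfkbia: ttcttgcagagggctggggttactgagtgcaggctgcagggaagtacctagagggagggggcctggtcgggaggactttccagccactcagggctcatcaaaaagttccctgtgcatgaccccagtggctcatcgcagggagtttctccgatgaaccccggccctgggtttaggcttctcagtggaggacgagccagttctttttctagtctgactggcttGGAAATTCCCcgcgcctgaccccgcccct
Csf1: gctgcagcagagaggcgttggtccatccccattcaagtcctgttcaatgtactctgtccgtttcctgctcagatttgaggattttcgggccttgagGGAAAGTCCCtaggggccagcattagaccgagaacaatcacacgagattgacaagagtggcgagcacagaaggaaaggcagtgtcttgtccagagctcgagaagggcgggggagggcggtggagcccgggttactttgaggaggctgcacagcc
Cxcl2 and Nfkbia, which encodes the NF-κB inhibitor IκBα, were higher in CD24highCD49fmed (2.24 and 1.50, adjusted p = 9.24e-04 and 0.00349), and Csf1 was lower (adjusted p = 0.00107). Genes that hold the letters thus went both ways, and the match is a description of the window only.

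Interferon response genes were called higher about as often as all features. Of 46 listed genes 16 were in the table, with 7 higher (against 44.0% of all features), 1 lower, 8 not called and a median of 0.98. Ifih1, a sensor of viral RNA, read 1.97 and 2.01 against -1.83, -0.94 and -0.10 for the lowest, median and highest basal arrays, with no overlap. Its difference was 2.93 (SE 0.50, adjusted p = 7.78e-05), and the GTPase genes Iigp1, Gbp6 and Gbp2 differed by 2.77, 2.31 and 1.85. The 2 CD24highCD49fmed arrays disagreed over the list, with medians of 0.22 in replicate 1 and 1.42 in replicate 2. Usp18, an interferon-induced protease, read 0.37 and 2.13, and its difference of 1.76 (adjusted p = 0.00847) became 2.65 without replicate 1 and 0.88 without replicate 2 (adjusted p = 0.267). It was also not called without Thy-1-CD24medCD49fhigh replicate 1 (1.56, adjusted p = 0.0507). Irf1 was the lower member at -1.06 (adjusted p = 0.0389), and leaving out any CD24highCD49fmed, Thy-1+CD24medCD49fhigh or Thy-1-CD24medCD49fhigh array, or CD24medCD49fmed replicate 2, ended that call (adjusted p from 0.0517 to 0.373). Without CD24highCD49fmed replicate 2 the list had 4 higher calls.

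The basal side of the comparison was more uniform. Of 41 basal transcription factors 21 were in the table, with a median of -2.04. Among them 20 were lower (all features 30.6%), none higher and 1 not called. Trp63 read -2.51 and -2.26 in CD24highCD49fmed, and 0.84, 1.29 and 1.68 at the lowest, median and highest basal arrays. All basal arrays were above 0 and both CD24highCD49fmed arrays far below, a difference of -3.67 (SE 0.41, adjusted p = 5.71e-07). Id4 differed by -5.13 (SE 0.40), the epithelial to mesenchymal regulator Snai2 by -3.84, the homeobox gene Irx4 by -3.50 and the LIM-only gene Lmo1 by -3.03. Nfia was the member not called (-0.98, adjusted p = 0.0849), and it passed without either CD24medCD49f-/low array (adjusted p = 0.0226).

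Basal keratins fell with them. Krt14 read -3.07 and -3.30 against 1.00, 1.85 and 2.47 for the lowest, median and highest of the basal arrays. The groups stood apart by more than 4 log2 units, and the difference was -4.98 (SE 0.45, adjusted p = 3.47e-08). Krt17 and Krt5 differed by -5.18 and -4.98, the hemidesmosome collagen Col17a1 by -4.21 and Krt15 by -4.04. Of 29 keratin and adhesion genes 19 were in the table, with a median of -1.53. They counted 15 lower (all features 30.6%), 1 higher and 3 not called. The higher one was Dsc2, a desmosomal cadherin, at 1.79 (adjusted p = 0.00216). Krt16 was not called at -0.97 (adjusted p = 0.0518), and passed without Thy-1+CD24medCD49fhigh replicate 2 (adjusted p = 0.0143) or either CD24medCD49f-/low array (0.0258). Without CD24highCD49fmed replicate 1 the list had 9 genes called lower.

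Smooth muscle genes were lower without exception among those in the table. All 24 of the 24 members in the table, of 33 listed, were called lower, and for all 24 both CD24highCD49fmed arrays lay below the 6 basal arrays, against 37.4% of features below and 30.6% called lower overall. The median was -2.72, and leaving out 1 array at a time kept at least 22 of the calls. Actg2, the enteric smooth muscle actin, read -3.50 and -2.73, and 1.11, 1.74 and 2.88 at the lowest, median and highest basal arrays, a difference of -4.96 (SE 0.47). Myl9, the regulatory myosin light chain, differed by -4.83 (SE 0.42), Tagln by -4.82, the coactivator gene Tgfb1i1 by -4.53 and Mylk, the kinase that phosphorylates myosin light chains, by -4.27. Acta2, the α-smooth muscle actin by which myoepithelium is stained, read -1.95 and -1.86 with basal arrays from 0.83 to 1.32. It differed by -3.02 (SE 0.40, adjusted p = 4.70e-06), the mean of probe sets at -5.19, -1.62 and -2.24.

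Contractile genes are textbook targets of serum response factor, which binds the CArG box, and the promoter windows that hold this motif are shown for that reason. The box was searched only as CCWWWWWWGG, where W is A or T, so boxes with another letter were not counted. Windows were found for 19 of the 24 genes, 22 in all. Of these, 3 held an exact CArG box on either strand, or 13.6%, against 1.47% of all windows. The letters GGAATG, read by TEAD factors, were in 8 of the 22, or 36.4%, against 12.6% of all windows. Capitals mark the exact CArG box. Myl9 lies on the plus strand at chr2:156775214-156775463, Cnn2 on the plus strand at chr10:79988350-79988599 and Vcl on the plus strand at chr14:20929148-20929397.
Myl9: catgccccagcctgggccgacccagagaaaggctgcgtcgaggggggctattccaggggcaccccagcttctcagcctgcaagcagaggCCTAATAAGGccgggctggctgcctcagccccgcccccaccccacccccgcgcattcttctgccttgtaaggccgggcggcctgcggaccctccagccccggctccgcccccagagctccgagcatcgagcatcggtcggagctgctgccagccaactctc
Cnn2: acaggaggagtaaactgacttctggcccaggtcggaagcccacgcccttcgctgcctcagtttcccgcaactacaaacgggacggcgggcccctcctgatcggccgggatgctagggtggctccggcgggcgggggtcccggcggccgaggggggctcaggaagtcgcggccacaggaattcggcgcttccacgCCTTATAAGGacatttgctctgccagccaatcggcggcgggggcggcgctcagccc
Vcl: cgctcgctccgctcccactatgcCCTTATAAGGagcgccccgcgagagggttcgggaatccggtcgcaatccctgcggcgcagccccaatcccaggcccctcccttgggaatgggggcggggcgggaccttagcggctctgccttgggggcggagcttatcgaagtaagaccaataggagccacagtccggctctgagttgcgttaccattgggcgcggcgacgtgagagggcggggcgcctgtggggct
Cnn2 encodes calponin 2 and Vcl the adhesion protein vinculin, and they were lower by -2.38 and -2.34 (adjusted p = 8.49e-05 and 1.28e-04). Most contractile genes that fell, Acta2 and Cnn1 among them, had no exact match to that pattern in these 250 bases where a window was found. This says nothing of boxes that differ by a letter or of sites elsewhere. For the luminal progenitor list only 4 of 12 genes had a window, 6 in all, and none held AGGAAGT, the letters searched for ETS factors, against 7.69% of all windows. An ETS or TEAD match and a κB site can share the letters GGAA.

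**Figure D3:**
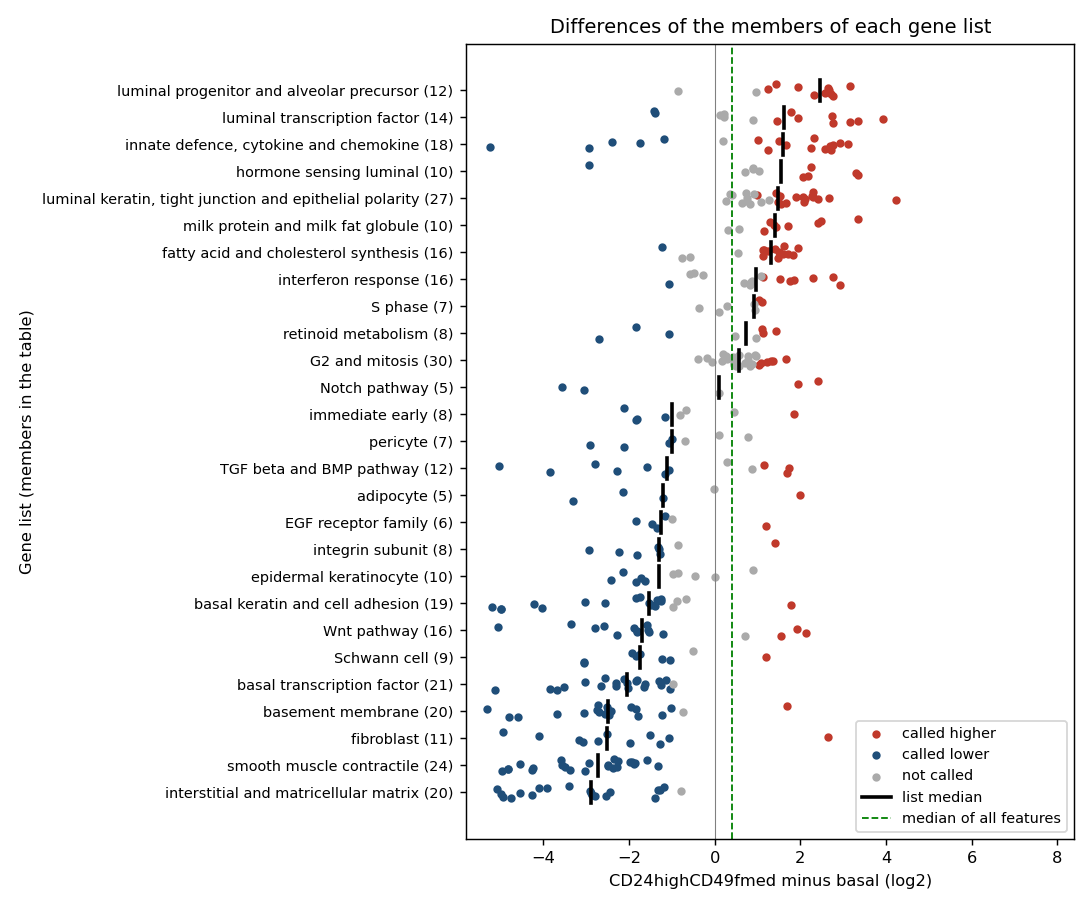
Difference of every list member in the table (CD24highCD49fmed minus basal, log2, horizontal axis) by gene list, with the number of members in parentheses; red points were called higher, blue lower and grey not called, black bars are list medians and the dashed line is the median of all features at 0.41. Luminal lists lie to the right, up to a median of 2.45, and contractile and matrix lists to the left, down to -2.89.

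Most matrix genes in the table were lower. Basement membrane genes numbered 20 in the table of 32 listed, with a median of -2.50. Among them 18 were lower (all features 30.6%), 1 higher and 1 not called. The collagen IV chains Col4a1 and Col4a2 differed by -4.80 (SE 0.40) and -4.59, and the laminin chains Lama1 and Lama3 by -3.68 and -3.06. Col4a1 read -3.06 and -3.20 in CD24highCD49fmed and 1.19, 1.71 and 2.06 at the lowest, median and highest basal arrays. The higher member was Npnt, the integrin ligand nephronectin, at 1.70 (adjusted p = 0.00497), and the call was lost without CD24highCD49fmed replicate 2 (1.31, adjusted p = 0.0940). Lama5 was not called at -0.73 (adjusted p = 0.223). Interstitial and matricellular genes counted 20 in the table of 44, with a median of -2.89. Here 19 were lower (all features 30.6%), none higher and 1 not called. Antxr1 differed by -5.08, the secreted glycoprotein gene Reln by -4.98, the periostin gene Postn by -4.93, the versican gene Vcan by -4.76 (SE 0.43) and Matn2 by -4.54.

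Integrins, the receptors that bind this matrix, followed it in part. Of 20 listed subunits 8 were in the table, with 6 lower (all features 30.6%), 1 higher, 1 not called and a median of -1.30. Itga6, whose protein CD49f was a sort marker, read -1.38 and -1.26 against 0.43, 0.90 and 1.36 at the lowest, median and highest basal arrays. Its groups did not overlap and it differed by -2.22 (SE 0.41, adjusted p = 1.63e-04). The CD49fhigh gates were drawn on more of that protein, while CD24medCD49fmed carries the same CD49fmed label as CD24highCD49fmed. Itga9 differed by -2.93 and Itga1 by -1.82. Itgb1 was lower at -1.31 (adjusted p = 0.0147) but not without CD24highCD49fmed replicate 1 (-1.14, adjusted p = 0.144) or replicate 2 (-1.48, adjusted p = 0.0551). Itgb8 was the higher subunit at 1.40, with CD24highCD49fmed arrays at 1.83 and 0.34, and became 0.66 without replicate 1 (adjusted p = 0.377) and 2.15 without replicate 2. Only 3 subunits were called lower when either CD24highCD49fmed array was left out. Cd24a, the other sort gene, was not among the genes analysed here.

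In the Notch pathway, where a ligand on one cell activates a receptor on its neighbour, 2 ligand genes and 2 target genes went opposite ways. The ligand genes Dll1 and Jag2 were lower, at -3.56 (SE 0.43, adjusted p = 1.59e-06) and -3.05 (SE 0.42), and the target genes Hey1 and Hey2 were higher, at 1.94 (SE 0.44) and 2.42 (SE 0.40, adjusted p = 5.79e-05). Dll1 read -2.22 and -2.42 in CD24highCD49fmed and 0.61, 1.25 and 1.79 at the lowest, median and highest of the basal arrays. Hey2 showed the reverse, with 1.96 and 1.39 in CD24highCD49fmed and basal values of -1.20, -0.68 and -0.49. Neither gene had overlapping arrays, and all 4 were called against each basal population, as were 50.9% of all features. The receptor gene Notch3 was not called (0.10, adjusted p = 0.851), and these 5 of 30 listed genes were the ones in the table, with a median of 0.10. They counted 2 higher (all features 44.0%), 2 lower (30.6%) and 1 not called, shares not far from those of all features.

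Wnt pathway genes were mostly lower. Of 63 listed genes 16 were in the table, with 12 lower (all features 30.6%), 3 higher, 1 not called and a median of -1.69. Wif1, a secreted Wnt inhibitor, read -3.27 and -3.18 against 1.33, 1.66 and 2.53 at the lowest, median and highest basal arrays, a difference of -5.06 (SE 0.43, adjusted p = 2.09e-08). Sostdc1, Dkk3 and Nkd2, further inhibitors or antagonists, differed by -3.36, -2.79 and -2.58, and the ligand gene Wnt6 by -2.28. The higher members were the receptor gene Fzd4 at 2.14 (SE 0.44), the ligand gene Wnt5b at 1.54 and Rspo1, a ligand that raises Wnt signals, at 1.93. Wnt5b lost its call without CD24highCD49fmed replicate 1 (1.26, adjusted p = 0.0986). Rspo1 rested on 1 array, with 3.25 in CD24highCD49fmed replicate 1 and -0.58 in replicate 2, and its difference was 0.013 without the first and 3.85 without the second. It was also not called without Thy-1-CD24medCD49fhigh replicate 1 (1.82, adjusted p = 0.0651).

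Among TGF-β and BMP genes 12 of 41 were in the table, with a median of -1.10. They counted 7 lower (all features 30.6%), 3 higher (44.0%) and 2 not called. The lower ones were led by Fstl1, a follistatin-like secreted protein (-5.04, SE 0.42), the co-receptor Tgfbr3 (-3.84), Ltbp2 (-2.80) and the ligand Bmp7 (-2.27). Receptor genes differed in direction, since Tgfbr2 was higher at 1.70 (SE 0.42, adjusted p = 0.00171) and so was the inhibin subunit gene Inhbb at 1.73, the mean of probe sets at 2.59 and 0.86, of which the second was not called. Tgfbr2 read 0.91 and 1.34, above basal values of -1.55, -0.55 and 0.04 at the lowest, median and highest. The third higher member, Id2, was called at 1.16 (adjusted p = 0.0224) but not without CD24highCD49fmed replicate 1 (0.0990) or 2 (0.161) or CD24medCD49fmed replicate 3 (0.0561). Without CD24highCD49fmed replicate 1 the list had 4 lower and 2 higher calls. In the EGF receptor family 6 of 18 genes were in the table, with a median of -1.25. Among them 4 were lower (all features 30.6%), 1 higher and 1 not called. The feedback inhibitor gene Errfi1 was lower at -1.83 (SE 0.44, adjusted p = 0.00157) with every array left out in turn, and without CD24highCD49fmed replicate 1 it was the 1 call left in that list. Nrg1 (-1.45), Egfr (-1.34) and Lrig3 (-1.16), a ligand, a receptor and an inhibitor, lost their calls without that array (adjusted p = 0.0636, 0.0600 and 0.153), and the last 2 also without replicate 2 (0.112 and 0.103), when 2 calls were left. Erbb3, another receptor, was higher at 1.21 (adjusted p = 0.0374), the mean of 2 probe sets that disagreed at 2.43 and -0.01, and was not called without either CD24highCD49fmed array, CD24medCD49fmed replicate 2, Thy-1+CD24medCD49fhigh replicate 1 or either Thy-1-CD24medCD49fhigh array (adjusted p from 0.0511 to 0.227).

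Retinoid genes, of interest because aldehyde dehydrogenase activity is used to mark mammary stem and progenitor cells, had no common direction. Aldh1a1 read -1.70 and -1.54 in CD24highCD49fmed and -0.20, 1.13 and 2.54 at the lowest, median and highest of the basal arrays. It was lower by 6.53-fold (-2.71, SE 0.48, adjusted p = 1.02e-04), with no overlap, while Aldh1a3 and Aldh1a7 were not called (0.96 and 0.49). The chemerin gene Rarres2, a retinoid-responsive gene, was lower at -1.83 (SE 0.40, adjusted p = 6.93e-04). Over 26 listed genes 8 were in the table, with a median of 0.72. They counted 3 higher (all features 44.0%), 3 lower (30.6%) and 2 not called. Adh1 (1.43), Dhrs3 (1.12), Crabp2 (1.11) and Rdh10 (-1.06), which convert or bind retinoids, all lost their calls without CD24highCD49fmed replicate 2 (adjusted p = 0.124, 0.225, 0.227 and 0.190). Dhrs3, Crabp2 and Rdh10 lost them without replicate 1 too (0.0872, 0.118 and 0.110), Rdh10 without CD24medCD49fmed replicate 3 (0.0523), Dhrs3 without CD24medCD49fmed replicate 2 or replicate 1 of either CD49fhigh population (from 0.0581 to 0.0740), and Crabp2 without any 1 basal array (from 0.0505 to 0.131).

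Of the other genes that the study names, the cell cycle inhibitor gene Cdkn1a was lower at -1.50 (SE 0.42, adjusted p = 0.00413) and Procr, the protein C receptor gene, at -1.57 (SE 0.40, adjusted p = 0.00228). Cdkn1a lost its call without CD24highCD49fmed replicate 1 (-1.38), and Procr lost its call without replicate 2 (-1.29). Thy1 read -1.13 and -1.06 in CD24highCD49fmed and -0.54, 0.40 and 2.59 at the lowest, median and highest basal arrays, with the highest in the Thy-1+ gate that its protein defined. Its difference of -1.62 (adjusted p = 0.00664) lost its call without CD24highCD49fmed replicate 1 (-1.58, adjusted p = 0.0625), and with the population sorted for Thy-1 left out of the basal mean (-1.09, adjusted p = 0.0669). Rarres1 was not among the genes analysed here.

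Few proliferation genes were called, and for most of those in the table the arrays overlapped. Of 48 G2 and mitosis genes 30 were in the table, and 6 were higher (against 44.0% of all features), none lower and 24 not called, with a median of 0.57 against 0.41 for all features. Those called were Ect2 (1.66), Kif20b (1.35), Kif2c (1.32), Nusap1 (1.22), Bub1 (1.08) and Cdc20 (1.05), genes of spindle assembly, its checkpoint and cytokinesis. With quantile normalisation the list median was 0.20, against 0.23 for all features. In that setting Kif20b, Nusap1 and Bub1 lost their calls (limma adjusted p = 0.106, 0.167 and 0.163). Ect2, which starts cytokinesis, read 1.54 and 1.67 against -0.92, -0.15 and 1.46 for the lowest, median and highest basal arrays. Its CD24highCD49fmed values were just above the highest basal array, and over the whole list Thy-1-CD24medCD49fhigh replicate 2 had the highest median of all 10 arrays, 1.25. Without that array 12 genes of the list were called higher, without CD24highCD49fmed replicate 1 only 1, and without replicate 2 none. Leaving out CD24medCD49fmed replicate 2 gave 3 calls, and leaving out replicate 1 of either CD49fhigh population gave 2. Of 34 S phase genes 7 were in the table, with 2 higher (Gins1 and Hells, 1.10 and 1.05), none lower, 5 not called and a median of 0.92. With quantile normalisation none of the 7 was called. No S phase gene was called without either CD24highCD49fmed array, CD24medCD49fmed replicate 2 or replicate 1 of either CD49fhigh population, and 4 were called without either CD24medCD49f-/low array. Immediate early genes, which respond to stimulation and to dissociation of tissue, numbered 8 in the table of 39, with a median of -0.99. They counted 4 lower (all features 30.6%), 1 higher and 3 not called. Arc (-2.11) and Egr2 (-1.83) were lower, and Klf2 was higher at 1.85 (SE 0.40).

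Markers of other cell types were checked, since sorted basal gates can hold other cells. No endothelial gene of 16 was in the table, 1 of 22 leukocyte genes was (Lcp1, higher at 1.92) and 1 of 10 erythroid genes (Hba-a2, lower at -2.36), and the defining genes Pecam1, Cdh5, Kdr and Ptprc were not among them. For all features the shares called were 44.0% higher and 30.6% lower. Fibroblast genes numbered 11 of 20 in the table, with 10 lower, 1 higher (Col6a3, 2.65), none not called and a median of -2.50. Their median per array was -1.75 and -1.59 in CD24highCD49fmed, 0.80 and 0.95 in CD24medCD49fmed, 1.53 and 1.10 in Thy-1+CD24medCD49fhigh, and -0.07 and -0.11 in Thy-1-CD24medCD49fhigh. The collagen genes Col1a1 and Col1a2 differed by -1.27 and -1.96, and Pdgfra and Dcn were not among the genes in the table. Several list members, such as Postn and Mmp2, are also on the interstitial matrix list. The part of fibroblast RNA in the matrix differences, in cells stained with CD140α as above, was not tested. Pericyte genes numbered 7 in the table of 13, with 4 lower, none higher and 3 not called (median -1.0), led by the receptor gene Pdgfrb at -2.92, and 2 were lower without either CD24highCD49fmed array or CD24medCD49fmed replicate 3. Schwann cell genes numbered 9 of 17, with 7 lower, 1 higher and 1 not called (median -1.75), led by the myelin genes Mbp at -3.05 and Pmp22 at -3.04. Adipocyte genes numbered 5 of 16, with 3 lower, 1 higher and 1 not called (median -1.20), led by the fatty acid binding protein gene Fabp4 at -3.31.

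Epidermal keratinocyte genes were uneven among the basal arrays. Of 20 listed genes 10 were in the table, with 5 lower (all features 30.6%), none higher, 5 not called and a median of -1.31. Their median was 1.54 in CD24medCD49fmed replicate 2 and 1.99 in Thy-1+CD24medCD49fhigh replicate 1, and -0.73 to -0.03 in the other 4 basal arrays, which overlapped the -0.60 and -0.75 of CD24highCD49fmed. Lgals7, a galectin, was lower in every setting tried, at -2.13 (SE 0.42). Krt77 and Krt10, keratins of differentiated skin, differed by -2.42 and -1.64, and Krt10 lost its call without CD24highCD49fmed replicate 2 (-1.23, adjusted p = 0.132). Krt1 at -1.83 lost its call without CD24highCD49fmed replicate 1 (adjusted p = 0.0930), Thy-1+CD24medCD49fhigh replicate 1 (0.0998) or either Thy-1-CD24medCD49fhigh array (0.0841 and 0.0925). Without CD24highCD49fmed replicate 2, Thy-1+CD24medCD49fhigh replicate 1 or either Thy-1-CD24medCD49fhigh array the list had 3 calls, with robust moderation 2 and with quantile normalisation 1. Krt77 lost its call in the last 2 settings (adjusted p = 0.0514 and 0.0726), and so did Krt1 (0.104 and 0.112). How far these arrays set the lower basal keratin values was not tested.

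**Figure D4:**
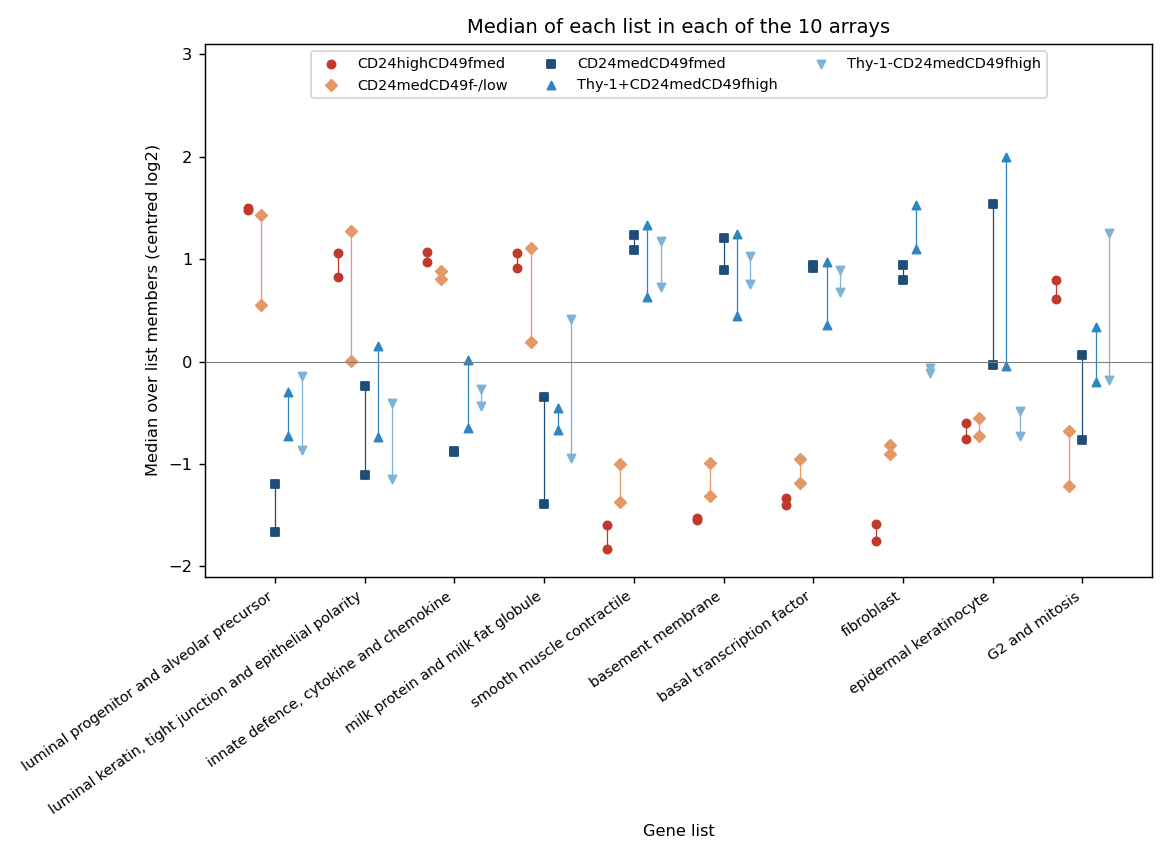
Median over the list members in each of the 10 arrays (centred log2, vertical axis) for 10 gene lists, with red circles for CD24highCD49fmed, orange diamonds for CD24medCD49f-/low and blue symbols for the basal populations; a line joins the 2 arrays of a population. Smooth muscle medians were -1.83 and -1.60 in CD24highCD49fmed and above 0.6 in all basal arrays, while epidermal medians reached 1.54 and 1.99 in 2 basal arrays only.

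Each basal population was also taken alone as the reference. Against CD24medCD49fmed 1964 features were called (67.0%, with 39.6% higher and 27.4% lower), against Thy-1+CD24medCD49fhigh 1818 (62.0%, with 35.7% higher and 26.3% lower) and against Thy-1-CD24medCD49fhigh 1758 (60.0%, with 38.1% higher and 21.8% lower), and the 3 comparisons share the CD24highCD49fmed arrays. These counts were lower when either CD24highCD49fmed array was left out. Such a fit leaves 1 array in that population, which makes its mean less precise. The lower counts therefore need not come from the values of the array left out. The 5 called genes chosen for the widest range of basal means, which is therefore no finding, were Col3a1, Krt1, Abca8a, Krt77 and Zeb2. Col3a1, a fibrillar collagen gene, was lower by -3.79 against CD24medCD49fmed and -4.34 against Thy-1+CD24medCD49fhigh, and its -1.05 against Thy-1-CD24medCD49fhigh was not called (adjusted p = 0.0731). Its 2 Thy-1- arrays read -0.84 and -1.05 while the other 4 basal arrays read 1.47 to 2.48. Zeb2, a repressor of epithelial genes, followed the same order with -2.21, -3.15 and -0.67 (adjusted p of the last 0.269), and the transporter gene Abca8a with -3.01, -4.37 and -1.63, all called. Krt14 stayed near 5 units lower against each, at -5.19, -5.07 and -4.69. Elf5 was higher by 3.71, 2.42 and 2.16 in the same order of populations. Cxcl2 was higher by 3.35 and 2.12 against the first 2, and its 1.26 against Thy-1-CD24medCD49fhigh was not called (adjusted p = 0.0835). Differences between the basal populations themselves were not tested here.

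**Figure D5:**
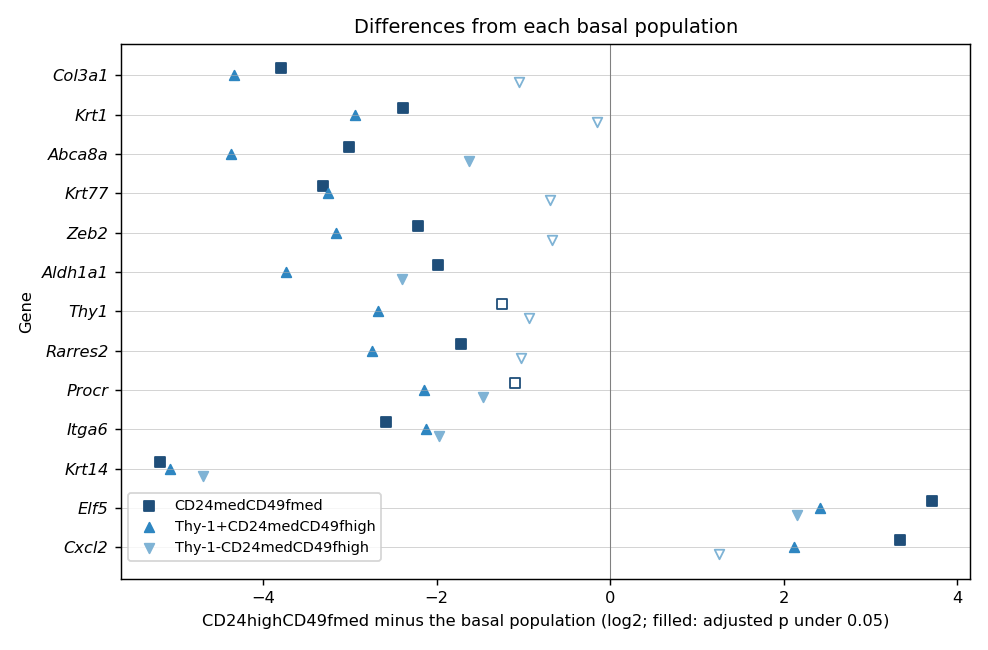
Difference of CD24highCD49fmed from each basal population (log2, horizontal axis) for 13 genes, with squares for CD24medCD49fmed, upward triangles for Thy-1+CD24medCD49fhigh and downward triangles for Thy-1-CD24medCD49fhigh; filled symbols passed an adjusted p under 0.05. Col3a1, Krt1, Krt77 and Zeb2 lie far to the left except against Thy-1-CD24medCD49fhigh, and Krt14 lies near -5 against all 3.

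Set against the other luminal population, few genes were called in the main fit, and more with the replicate number as a block (given below). In CD24highCD49fmed minus CD24medCD49f-/low, 6 features were called (0.205%), 2 higher (0.0682%) and 4 lower (0.136%), and 451 had an unadjusted p under 0.05, while rank products called 96, where chance alone would give 58.6. All 6 were also called against basal cells in the same direction. Myl9 read -3.83 and -3.14 in CD24highCD49fmed, -0.82 and -0.26 in CD24medCD49f-/low and at least 1.04 in the basal arrays, so the CD24medCD49f-/low arrays lay between, at a difference of -2.95 (adjusted p = 0.0179). Tgfb1i1 differed by -2.89 (adjusted p = 0.0179), Ism1, a secreted protein gene, by -2.46 and Sparc by -2.36 (both adjusted p = 0.0458), with the same order of populations. Ect2 and Spc25, a kinetochore gene, were higher by 3.07 and 2.83 (both adjusted p = 0.0458). The G2 and mitosis list had a median of 1.73 in this comparison, with 1 of its 30 members called. No feature was called when either CD24highCD49fmed array or any CD49fhigh array was left out, and 295 and 118 were called without CD24medCD49f-/low replicate 1 and 2, which differed from each other more than the arrays of any other population did, by a mean of 0.925 against 0.377 for CD24highCD49fmed.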

How the data were processed

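RNA of 5 sorted mouse mammary populations, 2 samples each, was amplified in 2 cycles and hybridised to Affymetrix mouse expression arrays, whose probes lie near the 3′ ends of transcripts. The authors deposited log2 intensities; the labels name RMA and GCRMA without saying which step each served, and no version is given in the sources used here. The deposited table held 3663 probe sets that the authors had filtered for low signal and for a wide range between arrays (smallest range found, 2.00 log2 units) and centred to a mean of 0, so neither levels nor genes that varied less can be read from it.

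Of these, 3291 had 1 gene symbol in the platform annotation, 75 had several and 297 were not annotated there. Probe sets of 1 gene were averaged to 2560 named genes, and the other 372 were tested unnamed. limma 3.58.1 in R 4.3.3 was fitted to all 10 arrays with a mean per population, and CD24highCD49fmed was compared with the unweighted mean of the 3 basal populations (lmFit and eBayes, Benjamini-Hochberg adjustment over 2932 features, adjusted p under 0.05). The fit had 5 residual and 16.5 prior degrees of freedom. The scripts were tested on simulated data. With 2 arrays per population their number limits the precision. Where 1 array was left out, the lone array was assumed to vary like the others. A mean from 1 array is also less precise, so a call can be lost while the difference hardly changes. Sox4 differed by -1.38 both in the main fit and without Thy-1-CD24medCD49fhigh replicate 1, where its call was lost. Rank products, the study's own test, were run as an alternative with 100 permutations at p under 0.01 per direction.

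Genes were named by rule: of called genes without overlap, the 10 that rose most and the 10 that fell most, up to 5 called members of each of 30 lists and every called member against its list's median, the sort genes and genes the study names, genes called against CD24medCD49f-/low, 5 with the widest basal range, and 5 uncalled members of luminal or basal lists. Other genes were chosen after their values were seen, among them Kit, Ltf, Itgb3, Aldh1a3, Cxcl2, Cxcl15, Nfkbia, Esr1, Csn2, Csn1s2a, Cnn2, Vcl, Cnn1, Lama5, Notch3, Aldh1a7, Cdc20, Col1a1 and Col1a2. The members and lists were chosen with earlier results of these data known. Promoter windows came from RefSeq on GRCm38.p6, which held 2002 of the 2560 genes.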

Additional observations from a re-analysis of the deposited data

Results flagged for a closer look

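Between CD24highCD49fmed and CD24medCD49f-/low, which were both compared with the same basal arrays, 6 genes differed by limma at an adjusted p under 0.05. Ect2 and Spc25, genes of cell division, were higher in CD24highCD49fmed by 3.07 and 2.83 (log2), with both CD24highCD49fmed arrays above both CD24medCD49f-/low arrays. Myl9, Tgfb1i1, Ism1 and Sparc were lower in CD24highCD49fmed by -2.95, -2.89, -2.46 and -2.36, in both arrays, although all 4 were also lower in CD24medCD49f-/low than in every basal array. Each lost its call when either CD24highCD49fmed array was left out.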

How the results depend on the processing

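For CD24highCD49fmed against basal cells no feature was called in the opposite direction under any of 19 alternatives. Among these, leaving out either CD24medCD49f-/low array and using only the arrays compared gave identical results, so they amount to 1 check. Leaving out 1 array gave 1138 to 2403 calls (617 to 1343 higher, 521 to 1060 lower). Against CD24medCD49fmed that range was 837 to 2262 (404 to 1283 higher, 433 to 979 lower), against Thy-1+CD24medCD49fhigh 507 to 2185 (183 to 1223 and 288 to 962) and against Thy-1-CD24medCD49fhigh 630 to 2034 (243 to 1244 and 360 to 790). Against CD24medCD49f-/low it was 0 to 295 (0 to 146 and 0 to 149). Rank products called 274 against basal cells (138 higher, 136 lower) and 96 against CD24medCD49f-/low (51 and 45), where chance alone would give 58.6 calls in each comparison. Calls against each of the 3 basal populations left 577 features lower. For CD24medCD49f-/low, setting each array's median to 0 gave 15 calls (13 lower), probe sets tested alone 11 (8 lower), and quantile normalisation, array weights and the arrays compared alone 0 in both directions. The median of all features moved from 0.41 to 0.23 with quantile normalisation and to 0.31 with array medians at 0.

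Correlations of same-numbered deviations ran from -0.51 to 0.52, so whether replicate numbers pair the samples is not known. The 0.52 was between the luminal populations, and the -0.51 between CD24medCD49fmed and Thy-1+CD24medCD49fhigh, which share only number 2. With the replicate number as a block, 2157 features were called against basal cells, 1244 against CD24medCD49fmed (681 higher), where replicate 2 alone shares a number, and 33 against CD24medCD49f-/low (23 higher, 10 lower), and among 165 named genes 6 gained and 4 lost a call. Krt19 and Cldn7, at 0.63 and 1.28 and not called, were called with the block at 1.53 and 2.08. With 1 array left out Krt19 ranged from -0.074 to 1.34, without CD24highCD49fmed replicate 2 and 1, and was not called. Of the named genes, 36 and 32 lost their calls without CD24highCD49fmed replicate 1 and 2, and 22 with quantile normalisation. The causes were not tested.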
